A study of Homo sapiens with 2 samples.

Results

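Kinesins are the motor proteins that walk along microtubules or take them apart. The genes described here are those whose symbols begin with KIF and a digit, as read by probe sets with exactly 1 gene symbol in the platform annotation and leaving out antisense genes. The rule found 41 probe sets for 38 genes, among 33297 probe sets and 18417 genes in all. The cells were H1299, an established human non-small cell lung carcinoma line without p53. Total RNA of cells given p53 and of a negative control was hybridised to 1 Affymetrix array each, in a series on p53 and 5-hydroxymethylcytosine, and neither the way p53 was introduced nor the time allowed is given in the sources used here.

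Without replicates there is no p-value and no replicate error for any difference, and each one describes these 2 arrays. All values are log2 intensities as the authors deposited them after RMA, the robust multi-array average. A difference is the log2 intensity with p53 minus that in the negative control, and a gene was called higher or lower at a difference of at least 2-fold, a rule of size. The median of all probe sets was 7.38 in both arrays. CDKN1A, the p21 gene that p53 switches on, measured 12.66 in the p53 array and 9.18 in the control array. Of 7 markers of a carcinoma line, KRT8, KRT18, VIM and CDH2 were above the median of all values in both arrays, and EPCAM, CDH1 and KRT19 were below it. Of 7 measured markers of blood, fibroblasts and endothelium, 6 were below it in both arrays, with COL1A1 at 8.14 as the exception. In these bulk samples, fewer cells that express a gene and less of its RNA per cell cannot be told apart.

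Kinesins share a motor domain that, in most of them, turns ATP hydrolysis into movement, and the rest of the protein decides where the motor works. The mitotic kinesins build the spindle, move and align chromosomes, and assemble the midzone where the cell divides, and many of their genes are transcribed mainly in G2 and M phase. The transport kinesins carry vesicles, organelles and ciliary cargo in cells that need not divide. By textbook role the 38 genes fell into 12 mitotic kinesins, 15 transport kinesins, 6 kinesins of cilia that are not cargo carriers, and 5 with both kinds of role or none that is settled.

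Most mitotic kinesins were several times lower with p53, whereas most transport kinesins stayed near the control. The median difference of the 12 mitotic kinesins was -2.09, a 4.26-fold lower level, and that of the 15 transport kinesins was 0.13. The median difference over all 18417 genes, the reference for each class median, was 0.00. The mitotic median minus the transport median was -2.22. At least 2-fold lower were 9 of the 12 mitotic kinesins and 0 of the 15 transport kinesins, while 3.7% of all genes were. At least 2-fold higher were 0 mitotic and 2 transport kinesins (13.3% of the 15), while 5.22% of all genes were. A count of 2 among 15 genes tells little. Of the 15 transport kinesins, 6 had a difference below 0, 8 were above 0 and 1 was listed as equal. At 3-fold the same 9 mitotic kinesins were lower, against 0.956% of all genes, and 1 transport kinesin was higher, against 2.47%. At 1.5-fold 9 mitotic and 0 transport kinesins were lower, against 10.1% of all genes, and 4 transport kinesins were higher, against 9.4%.

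**Figure D1:**
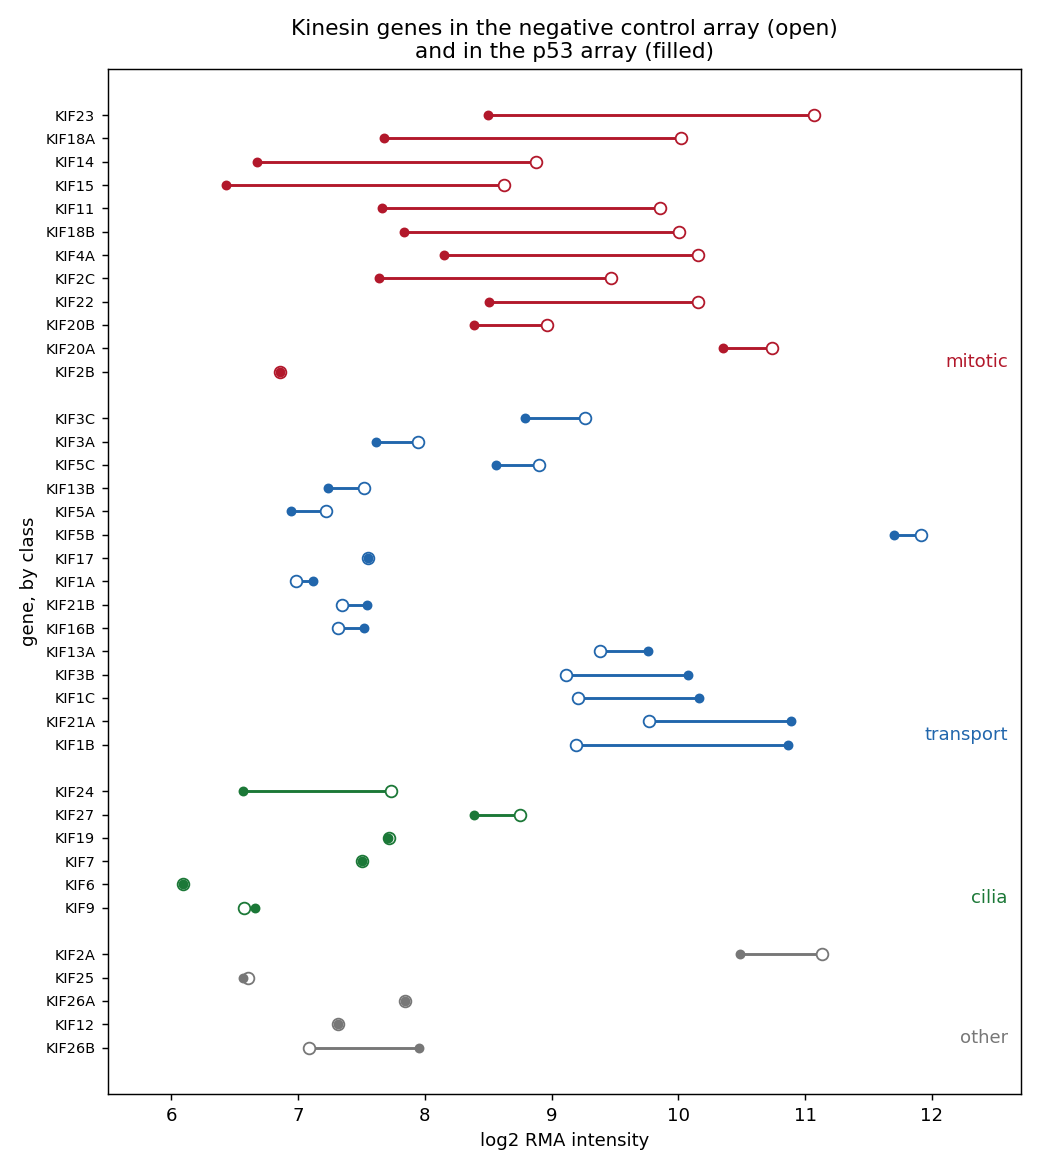
Log2 RMA intensity (x axis) of each of the 38 kinesin genes (rows, grouped by class), with an open circle for the negative control array and a filled circle for the p53 array. In 9 of the 12 mitotic genes the filled circle lies more than 1.6 to the left of the open one, whereas KIF1B and KIF21A have theirs more than 1 to the right. Distances along a row compare the arrays, and rows are not to be compared for level.

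The motors that push spindle poles apart and keep them apart were among the lowest. KIF11, the tetrameric motor that slides antiparallel microtubules to form a bipolar spindle, measured 7.66 in the p53 array and 9.85 in the control array, a 4.57-fold lower level. KIF15, which supports bipolarity when KIF11 is limiting, measured 6.43 in the p53 array and 8.63 in the control array, 4.59-fold lower. The KIF15 value with p53 lay below the median of all values, 7.38. The differences of KIF11 and KIF15, -2.19 and -2.20, became -2.03 and -1.85 when an offset of 32 was added before log2. Only 53 of all genes had a lower difference than KIF11.

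Motors at chromosomes and at the plus ends of spindle microtubules were lower as well. KIF18A, which damps the movements of chromosomes at the spindle equator, measured 7.68 in the p53 array and 10.03 in the control array, 5.08-fold lower. Its paralogue KIF18B, which shortens astral microtubules, stood at 7.84 and 10.01 on its brighter probe set, and its other probe set gave -2.00 in place of -2.17. KIF4A, a chromosome-bound motor that also works at the midzone, measured 8.15 in the p53 array and 10.16 in the control array, 4.02-fold lower. KIF4A has a near-identical intronless copy, KIF4B, so its probes may read both. KIF22, which pushes chromosome arms away from the poles, measured 8.51 in the p53 array and 10.16 in the control array, 3.14-fold lower, and its other probe set gave -1.63 against -1.65. KIF2C, the centromeric motor that takes microtubules apart to correct wrong attachments, measured 7.64 in the p53 array and 9.47 in the control array, 3.57-fold lower. Its paralogue KIF2B, another depolymerase of the spindle, was listed at 6.86 in both arrays, below the median of all values.

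The midzone and cytokinesis motors split. KIF23, the motor subunit of the centralspindlin complex, measured 8.50 in the p53 array and 11.07 in the control array, a 5.96-fold lower level. Only 12 of all 18417 genes had a lower difference. KIF14, which acts with PRC1 and citron kinase at the midbody, measured 6.68 in the p53 array and 8.88 in the control array, 4.60-fold lower. Its value with p53 also lay below the median of all values, and the offset of 32 made its difference -1.90. KIF20A, which brings Aurora B to the midzone, measured 10.35 in the p53 array and 10.74 in the control array, 1.31-fold lower. KIF20B, a motor of late cytokinesis, stood at 8.38 and 8.96, 1.49-fold lower. These 2 and KIF2B were the mitotic kinesins that did not pass the 2-fold rule. KIF20A was above the median of all values in both arrays.

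Many genes transcribed in G2 and M phase carry, close to their start, a cell cycle genes homology region (CHR), the element bound by the MuvB complexes through which p53 acts on them indirectly, and often a CCAAT box, the element of NF-Y. Promoter windows of 250 bases before to 50 bases after a gene start were taken from RefSeq (GRCh38.p14), and 32 of the 38 kinesin genes matched. They were searched on both strands for the CHR letters TTTGAA or TTCGAA and for the CCAAT box letters CCAAT, and no matches of different motifs overlapped in these windows. The windows of 6 genes are cut here to the 150 bases before and the first 30 bases after the start, 5′ to 3′ on the gene's strand, with CHR and CCAAT matches in capitals. CCAAT reads ATTGG where it lies on the other strand. KIF23 and KIF18A are shown as the lowest members, KIF20A and KIF2B as mitotic kinesins that were not 2-fold lower, KIF24 as the 1 lower gene outside the mitotic class, and KIF5B as the transport kinesin with the highest mean intensity. KIF20A and KIF24 were added after their values were seen.
KIF23 (chr15:69414199-69414378, + strand): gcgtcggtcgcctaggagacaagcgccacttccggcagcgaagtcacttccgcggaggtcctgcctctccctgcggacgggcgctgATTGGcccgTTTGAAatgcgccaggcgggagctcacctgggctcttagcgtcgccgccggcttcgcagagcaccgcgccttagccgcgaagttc
KIF18A (chr11:28108127-28108306, - strand): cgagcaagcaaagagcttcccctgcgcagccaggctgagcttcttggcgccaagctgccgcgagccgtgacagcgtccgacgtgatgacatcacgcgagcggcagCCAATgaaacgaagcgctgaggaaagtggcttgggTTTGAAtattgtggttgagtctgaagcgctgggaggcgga
KIF20A (chr5:138178962-138179141, + strand): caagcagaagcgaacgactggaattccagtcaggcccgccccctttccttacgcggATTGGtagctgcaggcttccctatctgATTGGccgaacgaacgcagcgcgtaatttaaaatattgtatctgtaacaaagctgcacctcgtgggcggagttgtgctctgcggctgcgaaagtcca
KIF2B (chr17:53822777-53822956, + strand): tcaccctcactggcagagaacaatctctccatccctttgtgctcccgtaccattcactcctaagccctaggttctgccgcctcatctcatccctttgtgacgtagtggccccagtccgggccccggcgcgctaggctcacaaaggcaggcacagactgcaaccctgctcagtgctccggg
KIF24 (chr9:34329239-34329418, - strand): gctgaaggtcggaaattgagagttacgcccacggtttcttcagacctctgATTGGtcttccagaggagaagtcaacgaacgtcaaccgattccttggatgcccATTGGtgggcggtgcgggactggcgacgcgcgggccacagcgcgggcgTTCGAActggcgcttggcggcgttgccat
KIF5B (chr10:32056396-32056575, - strand): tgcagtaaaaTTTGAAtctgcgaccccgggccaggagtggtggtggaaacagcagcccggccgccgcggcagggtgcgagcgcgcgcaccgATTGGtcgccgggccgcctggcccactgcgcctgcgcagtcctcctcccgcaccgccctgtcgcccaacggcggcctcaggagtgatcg

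In KIF23 the CHR begins 55 bases before the start, with a CCAAT match whose first base is at -64. In KIF18A it begins at -10, with the CCAAT match at -45. KIF24 has a CHR of the second form from base 2 after the start and CCAAT matches at -47 and -100 in the bases shown. KIF20A holds 2 CCAAT matches, at -67 and -94, and neither CHR form. KIF2B holds no match of either motif, and its value of 6.86, listed for both arrays, does not show an unchanged transcript. KIF5B has a CHR further out, at -140, and a CCAAT match at -59.

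Over the class, 9 of 12 mitotic kinesins had a CHR match in their window, and so had 1 of 12 transport kinesins with a window, KIF5B. The share was 17.4% over the 14239 measured genes with a window and 16.4% over all 35116 windows of this length. A CCAAT match was present in 9 of the 12 mitotic and in 4 of the 12 transport kinesins, against 42.2% of measured genes, and 8 mitotic kinesins held both motifs, against 7.19% of measured genes. Of the 10 kinesin genes at least 2-fold lower with p53, 9 had a CHR match, and 2 of the other 22 did, KIF20B and KIF5B. Over all measured genes with a window, 32.7% of those at least 2-fold lower and 16.8% of the rest had one. KIF2C was the 1 lower kinesin with no match of either form. KIF20B had matches at bases 25 and 31 after the start, the farthest after the start among the kinesins. The 11 kinesin genes with a CHR match had a median difference of -2.17, from -2.57 for KIF23 to -0.21 for KIF5B. The 21 without one had a median of 0.00, from -1.84 to 1.67. Among those 21 were all 6 kinesins listed at exactly the same value in both arrays. The median of 0.00 is such a listed value, which does not show unchanged transcripts. The mitotic class and the CHR match share most of their kinesin genes, so the values do not separate class from motif. A match is a description of letters, and binding was not measured here.

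**Figure D2:**
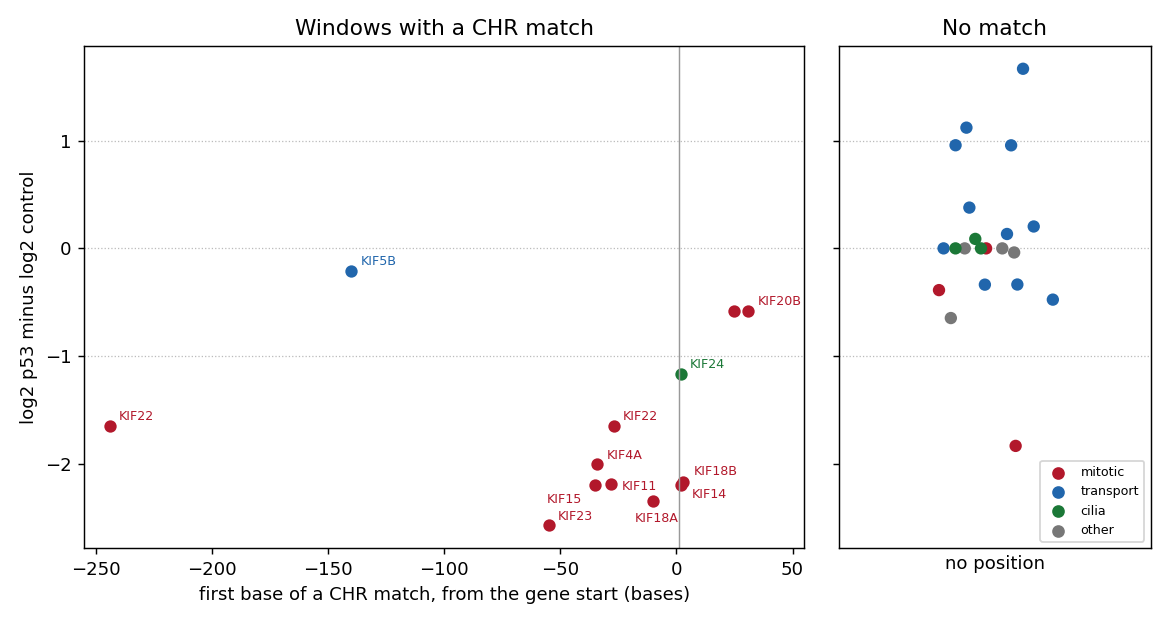
Difference in log2 intensity, p53 minus negative control (y axis), of the kinesin genes with a promoter window, against the distance in bases from the gene start to the first base of each CHR match (left), and of the 21 genes with no match (right), coloured by class. KIF22 appears at -27 and -244, which are 1 site seen from its 2 annotated starts, and KIF20B has 2 matches. Of the 10 lower genes, 9 are in the left panel, with matches from -55 to 3 beside the further KIF22 point, and KIF2C is in the right panel.

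E2F sites and the p53 decamer consensus were searched in the same way. The E2F letters, searched as TTTCCCGC, TTTCGCGC, TTTGCCGC or TTTGGCGC, were found in KIF15 and KIF25 only among the 32 kinesins, and in 5.51% of measured genes. The p53 decamer was searched as RRRCWWGYYY, where R is A or G, W is A or T and Y is C or T. A single copy counted as a match, and pairs of copies were not searched for. The decamer was found in KIF12, KIF16B and KIF18B, and in 8.19% of measured genes. No window of the 2 higher transport kinesins, KIF1B and KIF21A, held a p53 decamer, which says only that those letters are not in these windows.

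The largest differences among the transport kinesins were positive. KIF1B, a carrier of mitochondria and synaptic vesicle precursors of which an isoform is also linked to death of neural crest-derived cells, measured 10.86 in the p53 array and 9.19 in the control array. At 3.18-fold it was the highest of the family, and 409 of all genes had a higher difference. KIF21A, a motor held at the cell cortex where it restrains microtubule growth, measured 10.89 in the p53 array and 9.77 in the control array, 2.18-fold higher. It was counted as transport here. Without KIF21A and KIF21B, the class had 1 member called higher and a median difference of 0.00. KIF1C, a carrier of integrins and secretory vesicles, measured 10.17 in the p53 array and 9.21 in the control array. KIF3B, which pairs with KIF3A in the motor of intraflagellar transport, stood at 10.07 and 9.11. Both lay at a difference of 0.96, just short of 2-fold, and both passed it, at 1.05, when a lowess trend on intensity was removed. KIF13A, an endosome and melanosome carrier, followed at 9.76 against 9.38.

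The other KIF3 subunits had a smaller or an opposite difference. KIF3A measured 7.61 in the p53 array and 7.95 in the control array, and KIF3C, another member of the same family, stood at 8.79 and 9.27. KIFAP3, the accessory subunit of the KIF3 motor, measured 9.09 in the p53 array and 8.65 in the control array, a difference of 0.44. The heavy chains of conventional kinesin lay close together. KIF5B, the ubiquitous heavy chain, measured 11.71 in the p53 array and 11.91 in the control array. KIF5C, rich in neurons, stood at 8.56 and 8.90, and KIF5A, the other neuronal heavy chain, stood at 6.95 and 7.22, below the median of all values in both arrays. Its other probe set gave -0.37 in place of -0.27. All 3 heavy chains were thus slightly lower, between -0.34 and -0.21.

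The remaining transport kinesins differed little between the arrays. KIF1A, the carrier of synaptic vesicle precursors in axons, measured 7.12 in the p53 array and 6.99 in the control array. KIF21B was at 7.54 against 7.35, and KIF16B, an early endosome motor, at 7.52 against 7.32. KIF13B measured 7.23 in the p53 array and 7.52 in the control array, and KIF17, a motor of dendrites and cilia, was listed at 7.55 in both. Of the 15 transport kinesins, 10 were at or above the median of all values in both arrays, and the 4 with the largest positive differences were among them. Several of these motors are abundant in neurons. Of 11 measured markers of neurons, 0 were called, against 3.7% of all genes downward and 5.22% upward, so this count tells little. Equal in both arrays were 6, against 35.3% of all genes, and 7 were below the median of all values in both. SYT1 (0.80) and NEFL (0.77) had the largest differences of these markers, and their part in the values of KIF1B or KIF5C was not tested.

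Of the 6 kinesins of cilia, 1 passed the 2-fold rule downward and 0 upward, against 3.7% and 5.22% of all genes, and 1 gene says little about the class. KIF24, a microtubule depolymerase that holds back cilium formation at the mother centriole, measured 6.57 in the p53 array and 7.73 in the control array, 2.24-fold lower. Its value with p53 was below the median of all values, and it was at -0.95 when an offset of 32 was added before log2. KIF27, a relative of the Hedgehog regulator KIF7, measured 8.39 in the p53 array and 8.75 in the control array. KIF7 itself was listed at 7.50 in both arrays, and KIF19, which limits cilium length, stood at 7.71 in both to 2 decimals. KIF6 was listed at 6.09 in both arrays and KIF9, an axonemal motor, stood at 6.66 against 6.57. Of 8 markers of multiciliated airway cells, CCDC39, an axonemal ruler protein, measured 8.38 in the p53 array and 4.85 in the control array, whereas FOXJ1, the master regulator of those cells, was listed at 7.02 in both. Of the other 6, DNAI1, TEKT1 and RSPH1 were equal in both arrays and DNAH5, TPPP3 and CAPS lay within 0.5 of 0, and their part in the ciliary kinesin values was not tested.

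Among the 5 kinesins of mixed or unsettled role, 0 passed the 2-fold rule, which 3.7% of all genes passed downward and 5.22% upward, so a count of 0 among 5 tells little. KIF2A, a depolymerase of spindle poles and of growing neurites, measured 10.48 in the p53 array and 11.13 in the control array, 1.57-fold lower. KIF26B, a protein without motor activity that acts in Wnt5a signalling, measured 7.95 in the p53 array and 7.09 in the control array, 1.82-fold higher. KIF26A and KIF12 each held 1 value in both arrays, 7.85 and 7.32, and KIF25 stood at 6.57 against 6.61.

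Role and family, the grouping by motor sequence, did not give the same picture. The 38 genes fell into 13 families, and in 3 of them a mitotic and a non-mitotic member lay more than 2.3 apart. In kinesin-3, a family of vesicle carriers, the mitotic member KIF14 was at -2.20 and the transport member KIF1B at 1.67, the widest gap of any family at 3.87. In kinesin-4 the mitotic KIF4A was at -2.01 and KIF21A at 1.12, a gap of 3.13. In kinesin-8 the mitotic KIF18A was at -2.35 and the ciliary KIF19 at -0.01. In kinesin-12 KIF15 was at -2.20 and KIF12 was listed as equal. Within kinesin-6, all of whose members are mitotic, KIF23 at -2.57 and KIF20A at -0.39 lay 2.19 apart. Families with transport members alone, kinesin-1 and kinesin-2, held no member called in either direction. Of all genes, 3.7% were called lower and 5.22% higher, so this tells little for so few genes. KIF3B of kinesin-2 was just short of 2-fold, at 0.96.

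**Figure D3:**
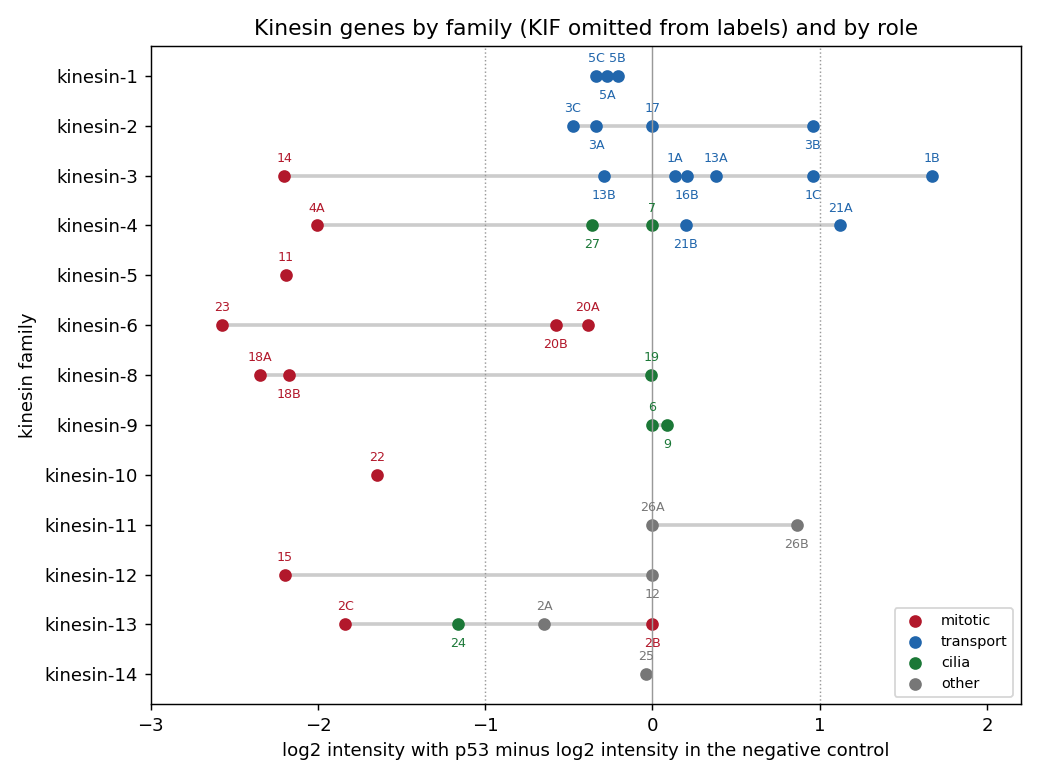
Difference in log2 intensity, p53 minus negative control (x axis), of each kinesin gene, arranged by kinesin family (rows) and coloured by role, with the grey line joining the lowest and highest member and dotted lines at 2-fold. Red mitotic members lie at the left end of kinesin-3, kinesin-4, kinesin-8, kinesin-12 and kinesin-13, with other roles to their right. KIF2B is the mitotic member at 0 in kinesin-13.

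Genes that act with these motors were read from lists of general knowledge, chosen with earlier results of these data known. Their counts are therefore descriptions only. Of the 10 other kinesin genes and subunits, KIFC1 and CENPE passed the 2-fold rule downward and 0 passed it upward, against 3.7% and 5.22% of all genes (list median -0.05). KIFC1, the minus-end motor that focuses spindle poles, measured 7.89 in the p53 array and 10.25 in the control array, 5.12-fold lower. CENPE, the kinetochore motor that carries chromosomes to the equator, stood at 6.98 and 9.21, 4.70-fold lower. The non-mitotic C-terminal motors KIFC2 and KIFC3 were at -0.11 and 0.00. The light chains that bind cargo to conventional kinesin were near 0, with KLC2 at -0.19, KLC1 listed as equal, KLC3 at 0.01 and KLC4 at 0.02. KIFBP, which blocks several motors from binding microtubules, was at -0.24.

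Of 18 spindle and midzone proteins that load or work beside mitotic kinesins, 15 passed the 2-fold rule downward and 0 upward, against 3.7% and 5.22% of all genes (median -1.87). ECT2, the exchange factor recruited by centralspindlin, measured 8.81 in the p53 array and 11.09 in the control array. HMMR, a spindle assembly factor, was at 7.51 and 9.79, and PRC1, the crosslinker that recruits KIF4A, was at 8.69 and 10.94. SKA1, of the kinetochore SKA complex, was at 6.87 and 9.08. RACGAP1, the partner of KIF23 in centralspindlin, was 3.61-fold lower. The members not called were HAUS1 (-0.64), CKAP5 (-0.37) and NUMA1 (-0.15), named after their values were seen.

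Of 13 measured cargo adaptors of transport kinesins, 3 passed the 2-fold rule upward (23.1%) and 0 downward, against 5.22% and 3.7% of all genes (median 0.00). FEZ1, an adaptor of kinesin-1, measured 8.70 in the p53 array and 6.41 in the control array, 4.89-fold higher. The control value of FEZ1 lay below the median of all values. TRAK2, which ties kinesin-1 to mitochondria, measured 10.85 in the p53 array and 9.40 in the control array, 2.73-fold higher. PLEKHM2, which couples kinesin-1 to lysosomes, stood at 10.73 and 9.70, a difference of 1.03. SPAG9, a JNK-linked adaptor, had the largest negative difference of the list, -0.71.

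The opposite motor was mostly near the control. Of 17 measured dynein and dynactin genes, the dynactin gene DCTN5 (12.08 with p53, 10.90 in the control) was at least 2-fold higher and the light chain gene DYNLT3 (7.51 and 8.71) at least 2-fold lower, with a median of 0.00. These shares, 5.88% in each direction, lie near the 5.22% and 3.7% of all genes. Of 16 measured tubulin genes, which form the track, 3 passed the 2-fold rule downward (18.8%) and 0 upward, against 3.7% and 5.22% of all genes (median -0.14). Below 0 were 11 of the 16, and 5 were at least 1.5-fold lower, against 10.1% of all genes, while 0 were at least 1.5-fold higher, against 9.4%. TUBA1C measured 11.37 in the p53 array and 12.89 in the control array. TUBA1A stood at 9.91 and 11.11, and TUBB2B at 8.55 and 9.62. Several tubulin genes are near-identical copies, so that a probe set can read several of them.

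**Figure D4:**
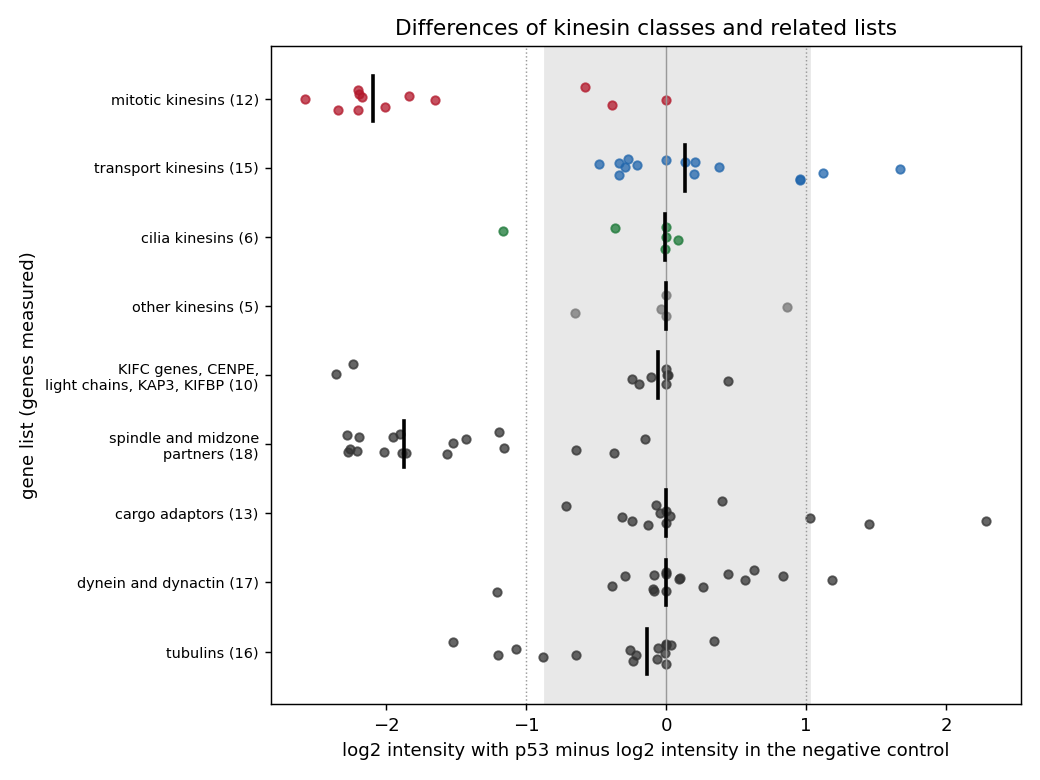
Difference in log2 intensity, p53 minus negative control (x axis), of each gene in the kinesin classes and the related lists (rows, number of genes measured in brackets), with a black bar at each median. The grey band spans the 5th to 95th percentile of all genes, -0.87 to 1.03, and dotted lines mark 2-fold. The mitotic kinesins and their spindle partners have medians of -2.09 and -1.87, left of the band, and all other medians lie inside it.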

How the data were processed

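Total RNA of H1299 cells, extracted with Trizol and labelled with biotin per the labels' protocols, was read on 2 arrays, 1 with p53 and 1 negative control. Per the submitters' processing notes the authors used RMA, and the deposited values are taken as log2 intensities because of their range. The software is not given in the sources. Once sorted, the 2 columns were never more than 0.192 apart, so a change of total RNA per cell cannot be read. The number of arrays limits the precision.

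Probe sets were named from GEO's platform annotation (19460 with 1 symbol, 1754 with several, 12083 with none), and symbols were updated by gene identifier to RefSeq. The members were taken by the platform symbol, and 5 probe sets that pair a kinesin with another symbol were left out. For genes with several probe sets, the one with the highest mean was used. No filter on intensity was applied, and counts cover all measured members. The members and lists were chosen with earlier results of these data known. All kinesin genes are named, and of the other lists the 10 further kinesin genes and subunits and, per list, up to 4 members of at least 2-fold difference with the largest differences. RACGAP1, SPAG9 and single marker genes were chosen after their values were seen. The orientation of the windows was checked by the commonest TATAAA position, -30 on the plus and -29 on the minus strand. The summaries were tested on simulated data. Alternatives were other probe set rules, centring, lowess (span 0.3), quantile normalization, an offset of 32, a floor at the 25th percentile (5.97), a filter on the mean, other class members, thresholds of 1.5-fold and 3-fold, and the mean. Python 3.11.15, numpy 2.4.6, pandas 2.3.3, statsmodels 0.14.6 and matplotlib 3.10.9 were used.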

Additional observations from a re-analysis of the deposited data

How the results depend on the processing

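No paired analysis was possible because each group is 1 array. Medians are given below where they shifted by over 0.111, the spread between 2 probe sets of 1 gene, and counts where they changed by over 1.5 times. The count of mitotic kinesins at least 2-fold lower was 9 or more under every alternative tried, 0 transport kinesins were lower under every alternative tried, and no called kinesin changed sign. The median of the mitotic kinesins was -1.87 with the offset of 32, -1.84 with KIF2A, KIF24 and KIF25 counted as mitotic, and -1.68 as a mean. That of the transport kinesins was 0.00 without KIF21A and KIF21B and 0.25 as a mean. The gap between the classes was -2.07 with each probe set counted, -1.98 with the offset, -2.37 with the filter on the mean, -1.97 with the 3 further mitotic genes, -2.09 without KIF21A and KIF21B, -1.93 as means, and -2.34 without genes equal in both arrays (a choice made after seeing the data). The number of transport kinesins called higher was 4 with the lowess trend removed, 1 without KIF21A and KIF21B, 4 at 1.5-fold and 1 at 3-fold. Of 228 values of the 38 genes under 6 alternatives, 3 calls changed, those of KIF1C, KIF3B and KIF24. Centring could not change any of these values, since the median difference of all genes was 0.00. Nor could the floor of 5.97, since the lowest kinesin value was 6.09. The mean over probe sets could change only KIF5A, KIF18B and KIF22, the kinesins with several probe sets. These alternatives therefore say little about stability. One array per group limits all of these values.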

Other observations

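A set of 6 kinesin genes, KIF2B, KIF6, KIF7, KIF12, KIF17 and KIF26A, were identical in the p53 and control arrays to every deposited digit, as were 35.3% of all genes. The same number also recurred across probe sets. The value of KIF6, 6.09313, stood in both arrays for 50 probe sets, that of KIF26A for 10, that of KIF17 for 6, that of KIF12 for 4 and that of KIF2B for 2, while that of KIF7 was its own. Over the whole table, 11947 probe sets were equal in both arrays and held 4692 distinct values, whereas the 21350 others held 18165 distinct values in the p53 array. A difference of 0.00 for these 6 genes is therefore a listed value and does not show that their transcripts were unchanged. The cause was not tested.

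KIF25-AS1, the antisense gene left out by the rule, was equal in both arrays too, at 7.34.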
